A study of Mus musculus with 7 samples.

Results

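Central carbon metabolism was described through bulk RNA sequencing of hematopoietic stem cells (HSCs) from mouse bone marrow, for 52 enzyme genes, covering glycolysis, the pentose phosphate pathway, pyruvate oxidation and the tricarboxylic acid (TCA) cycle. The genes were chosen by symbol, as the enzymes of these pathways with complex II counted in the TCA cycle and with the NADP-linked isocitrate dehydrogenases and malic enzymes added. They matched 53 of the 55855 rows of the expression table, because Aldoa had a second, nearly silent row with a mean of 0.705 FPKM (fragments scaled for transcript length and library size). All 52 symbols had a row above the mean of 1 FPKM that was required for testing.

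The series addressed what iron handling by ferritin does in HSCs. It held 3 control libraries, with the genotype given as Fth1fl/fl, and 4 Fth1-deleted libraries, given as Fth1△/△, all from bone marrow HSCs of mice aged 2 months. Fth1 encodes the heavy chain of ferritin, the protein shell that oxidises and stores iron, and it was deleted conditionally in blood-forming cells. The controls carried the floxed alleles, although the series text calls them wild type. The labels name no Cre driver, deleted exons, sort markers or sex, and are silent on whether the libraries are separate mice, so p-values measure the spread between these libraries, which may be partly technical.

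Glycolysis splits glucose into pyruvate in the cytosol, which lactate dehydrogenase can reduce to lactate. The pentose phosphate pathway branches off at glucose 6-phosphate and yields NADPH for reduction reactions and ribose for nucleotides, and the TCA cycle oxidises acetyl-CoA made from pyruvate in mitochondria. HSCs are known for leaning on glycolysis while quiescent, with pyruvate dehydrogenase kinases holding pyruvate back from the mitochondria, and several TCA cycle enzymes depend on iron-sulfur clusters.

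The libraries held 12058392 to 15453168 reads recovered from the FPKM values. Fth1 was at 552, 659 and 638 FPKM in the controls and at 202, 333, 358 and 114 FPKM in the Fth1-deleted libraries, or 40.8% of the control mean (log2 difference -1.42 ± 0.33 SE, adjusted p = 0.193). The HSC markers Kit and Hlf were present in every library, both with negative differences. Kit was at 279 to 428 FPKM in the controls and 209 to 313 FPKM in the Fth1-deleted libraries (log2 difference -0.41 ± 0.20 SE, adjusted p = 0.535). Hlf was at 157 to 263 against 66.9 to 129 FPKM, without overlap (log2 difference -1.17 ± 0.25 SE, adjusted p = 0.185). Control 2 stood apart from the other controls in its share of reads on ribosomal RNA genes, at 0.985% against 0.0254% and 0.0140%, while the Fth1-deleted libraries had 1.22% to 1.34%. Reads on Y-linked genes were present in control 2 and in Fth1-deleted 1, 2 and 3 and were 0 in the others.

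Promoter stretches are shown for 5 of the 6 members whose groups did not overlap and for Ldhb, the member with the lowest log2 difference, because several glycolysis genes are textbook targets of hypoxia-inducible factor (HIF), which binds the letters ACGTG or GCGTG. The sequences are RefSeq windows of GRCm38.p6, 5′ to 3′ on the gene's own strand, cut to the bases upstream of both the RefSeq and the GENCODE start. Aldoa is left out because its windows lie inside the GENCODE gene. Capitals mark ACGTG or GCGTG on either strand, so that CACGT and CACGC are the reverse-strand forms. They cover chr6:82774455-82774704 (minus strand) for Hk2, chr13:55021386-55021635 (minus) for Hk3, chrX:106186850-106187099 (plus) for Pgk1, chr4:149166772-149166955 (minus) for Pgd, chr7:80115393-80115600 (minus) for Idh2 and chr6:142507958-142508207 (minus) for Ldhb.
Hk2: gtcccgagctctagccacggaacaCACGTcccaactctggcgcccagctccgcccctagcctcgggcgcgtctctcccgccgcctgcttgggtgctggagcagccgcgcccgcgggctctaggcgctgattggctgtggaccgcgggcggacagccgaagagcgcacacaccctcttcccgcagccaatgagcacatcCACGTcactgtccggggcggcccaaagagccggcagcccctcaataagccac
Hk3: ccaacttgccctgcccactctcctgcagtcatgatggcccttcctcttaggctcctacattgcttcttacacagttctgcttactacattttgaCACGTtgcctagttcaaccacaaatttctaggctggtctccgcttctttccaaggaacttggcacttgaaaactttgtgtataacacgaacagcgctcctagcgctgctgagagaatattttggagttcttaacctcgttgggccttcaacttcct
Pgk1: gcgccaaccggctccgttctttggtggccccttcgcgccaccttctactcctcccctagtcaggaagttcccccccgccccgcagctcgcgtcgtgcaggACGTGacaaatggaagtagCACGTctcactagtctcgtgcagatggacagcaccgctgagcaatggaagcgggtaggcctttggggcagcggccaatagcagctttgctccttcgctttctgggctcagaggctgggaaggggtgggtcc
Pgd: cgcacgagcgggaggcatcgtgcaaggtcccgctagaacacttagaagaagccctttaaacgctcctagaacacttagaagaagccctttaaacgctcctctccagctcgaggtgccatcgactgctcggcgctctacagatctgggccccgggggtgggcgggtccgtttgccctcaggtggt
Idh2: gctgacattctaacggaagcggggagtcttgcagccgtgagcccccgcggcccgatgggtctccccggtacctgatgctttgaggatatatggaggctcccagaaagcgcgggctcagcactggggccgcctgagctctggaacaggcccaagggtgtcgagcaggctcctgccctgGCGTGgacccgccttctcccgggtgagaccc
Ldhb: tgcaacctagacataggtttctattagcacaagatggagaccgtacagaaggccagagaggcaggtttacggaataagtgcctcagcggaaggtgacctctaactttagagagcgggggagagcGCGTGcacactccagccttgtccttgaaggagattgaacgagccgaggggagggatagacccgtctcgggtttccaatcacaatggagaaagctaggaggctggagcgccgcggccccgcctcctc
Counted from the RefSeq start, the marked stretches begin at -226 and -52 in Hk2, -156 in Hk3 and -150 and -131 in Pgk1. They begin at -73 in Idh2 and -126 in Ldhb. The stretch shown for Pgd has none, because it was cut at the GENCODE start. Before the cut, this Pgd window holds GCGTG at -40, inside the GENCODE gene. Over full windows of 300 bases, 250 before and 50 after the start, 49 of the 52 symbols had an entry, with 70 windows between them. The HIF letters stood in 52 of these 70 windows (74.3%), against 43.8% of all 32851 windows and 61.6% of the 12201 windows of tested genes. The letters TGACNNNGC, the core of the element bound by NRF2, were in 10 of the 70 windows (14.3%), against 12.4% of all windows and 14.5% of those of tested genes. The E-box CACGTG, which contains ACGTG and binds MYC-family factors, was in 6 (8.57%), against 7.15% and 9.95%. A match describes the letters only. By gene, 39 of the 49 members with an entry had the HIF letters in at least 1 full window. The share by gene was not computed for other genes. Genes with several starts, such as Ogdh with its overlapping windows, count more than once in the window shares.

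No member passed the test between Fth1-deleted and control HSCs, and 6 had every deleted library above every control. With limma and Benjamini-Hochberg adjustment over 13948 genes, 0 of the 52 members had an adjusted p under 0.05, where 0.0287% of all tested genes were called higher and 0.0287% lower. Without adjustment, 10 members had a higher value at p under 0.05 (4.9% of all genes) and 1, Ldhb, a lower value (4.93% of all genes). On recovered reads with limma-voom, the count of members called was 0 as well, with 10 higher and 1 lower before adjustment. The 6 members whose groups did not overlap, all higher in the deleted libraries, were Hk2, Hk3, Aldoa, Pgk1, Pgd and Idh2 (4.1% of all genes). In the other direction 0 members were separated (5.55% of all genes).

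The log2 difference was positive for 39 of 52 members (75%), against 48.7% of all tested genes, and its median was 0.25 against -0.02. Control 2 was the lowest of the 7 libraries for 28 members and Fth1-deleted 4 the highest for 22. These counts were not made over all tested genes. Without control 2 the median was 0.11, with 71.2% of the members positive, and 6 members were higher at unadjusted p under 0.05. That count was 4 without Fth1-deleted 1 and 6 without Fth1-deleted 4, 4 with limma without its trend and 16 when the presence of Y-linked reads entered the model. The members are abundant transcripts, with a median mean level of 88.4 FPKM against 17.3 for all tested genes. Among genes with a mean of at least 50 FPKM, 75.6% of the 41 members and 56.1% of the 3148 genes were positive, a comparison added after the data were seen.

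**Figure D1:**
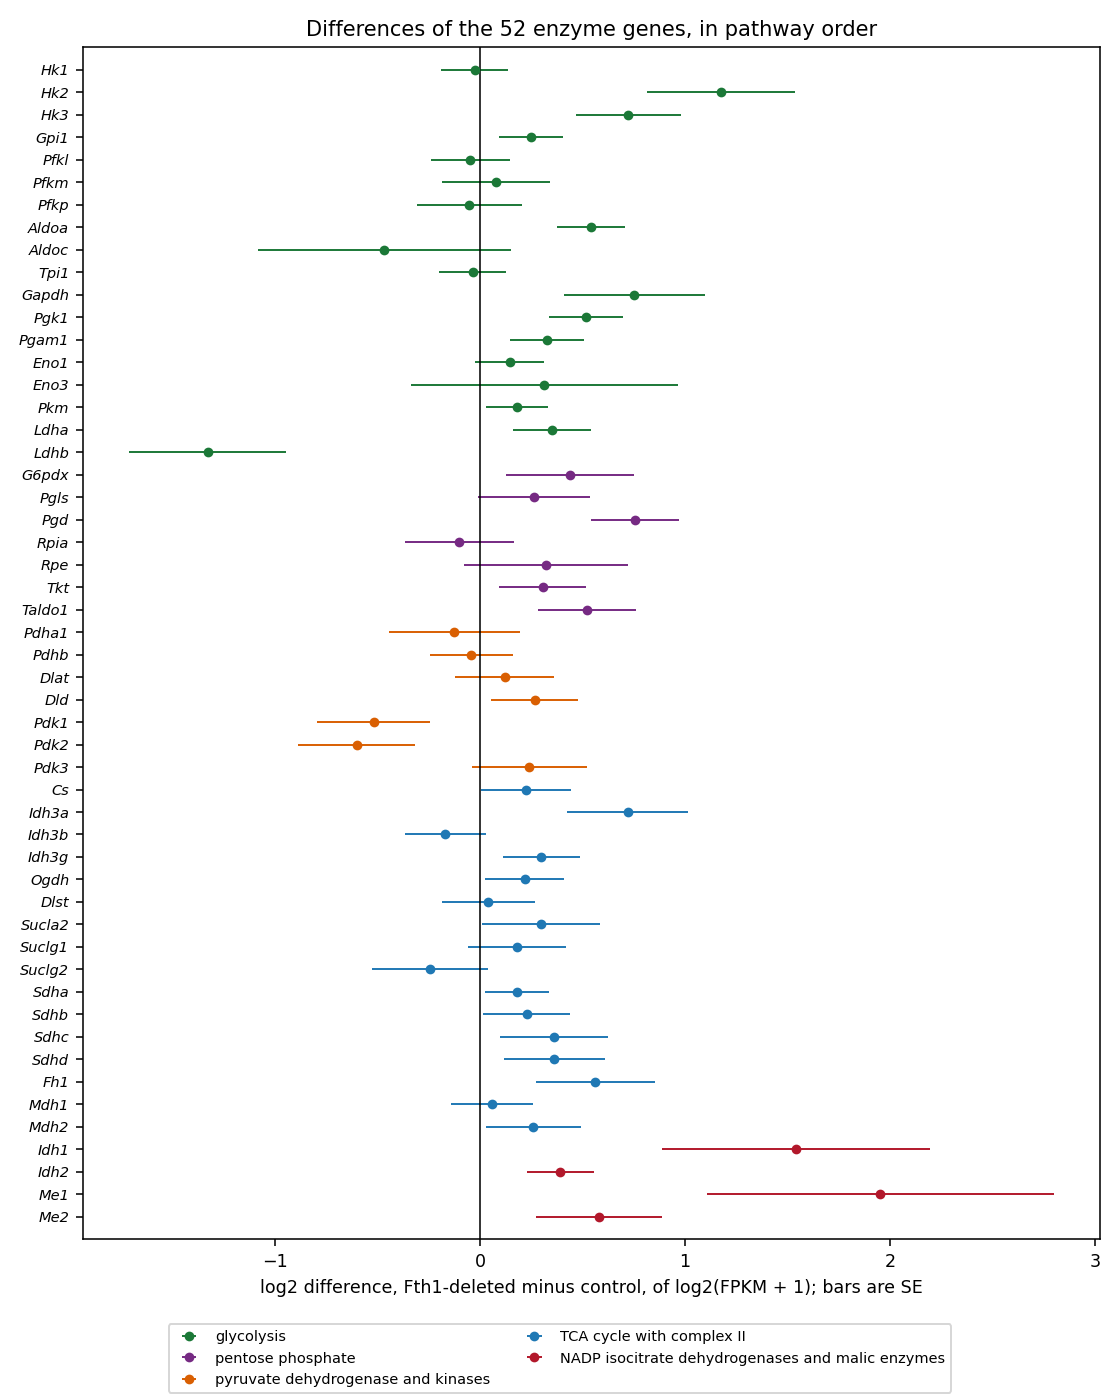
Log2 difference (Fth1-deleted minus control, of FPKM + 1) for the 52 enzyme genes from hexokinase at the top to the malic enzymes at the bottom. Points are estimates and bars are SE. Most points lie right of 0, and Ldhb is the farthest to the left at -1.33.

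Among lists of marker genes, the summed level separated the groups for HSC and macrophage markers, and overlapped for cell division and neutrophil markers. The 14 cell division genes were all positive, with a summed level of 1768, 1005 and 1253 FPKM in the controls and 1709 to 1849 FPKM in the Fth1-deleted libraries. Control 2, where many members were lowest, was also the lowest for this sum. Of the 10 HSC markers 1 was positive, with sums of 878 to 1427 against 583 to 788 FPKM. Of 11 tested neutrophil and myeloid progenitor markers 10 were positive (sums of 156 to 366 against 194 to 602 FPKM), with Elane, Ctsg, Ltf and Lcn2 at 0 in all controls, and of 9 macrophage markers 8 were positive (22.9 to 54.2 against 64.7 to 173 FPKM), with Adgre1 at 0 in all controls. The mast cell and basophil sums were 292 to 384 against 358 to 450 FPKM, with 4 of 4 tested markers positive, and the erythroid sums were 949 to 1324 against 875 to 1614 FPKM, with 7 of 9 positive. The part of these markers in the members' values was not tested. In bulk RNA, a change in the number of cells of a type and a change in RNA per cell cannot be told apart.

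Hexokinases phosphorylate glucose and so trap it in the cell. Hk1 (chromosome 10, 62268855 to 62379908) was the main form, at 541, 375 and 444 FPKM in the controls and 428, 430, 454 and 447 FPKM in the Fth1-deleted libraries. Its log2 difference was -0.03 ± 0.16 (SE, adjusted p = 0.966). Hk2, a form that can bind mitochondria and is induced by growth signals and hypoxia (chromosome 6, 82725025 to 82774454), was at 11.0, 14.6 and 17.1 FPKM in the controls. It was at 18.4, 43.3, 33.2 and 43.9 FPKM in the Fth1-deleted libraries. All deleted libraries were above all controls, but Fth1-deleted 1 only just. The mean was 2.44-fold higher (log2 difference 1.18 ± 0.36 SE, unadjusted p = 0.00679, adjusted p = 0.339).

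Hk3, the hexokinase typical of myeloid cells (chromosome 13, 55005985 to 55021385), had 23.4, 19.8 and 25.3 FPKM in the controls and 43.1, 35.3, 40.2 and 34.6 FPKM in the Fth1-deleted libraries. The groups were well apart, at a mean 1.68-fold higher with an adjusted p of 0.409. The summed macrophage markers were likewise higher in every deleted library than in any control, and their part in the Hk3 values was not tested. The summed hexokinase level overlapped, at 410 to 575 against 490 to 527 FPKM, while the mix of forms differed. Hk1 made up 94.0%, 91.6% and 91.3% of it in the controls and 87.4%, 84.6%, 86.1% and 85.1% in the Fth1-deleted libraries, without overlap. Hk3 supplied 4.06% to 5.20% in the controls and 6.57% to 8.81% in the deleted libraries, and Hk2 1.91% to 3.56% against 3.75% to 8.51%.

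**Figure D2:**
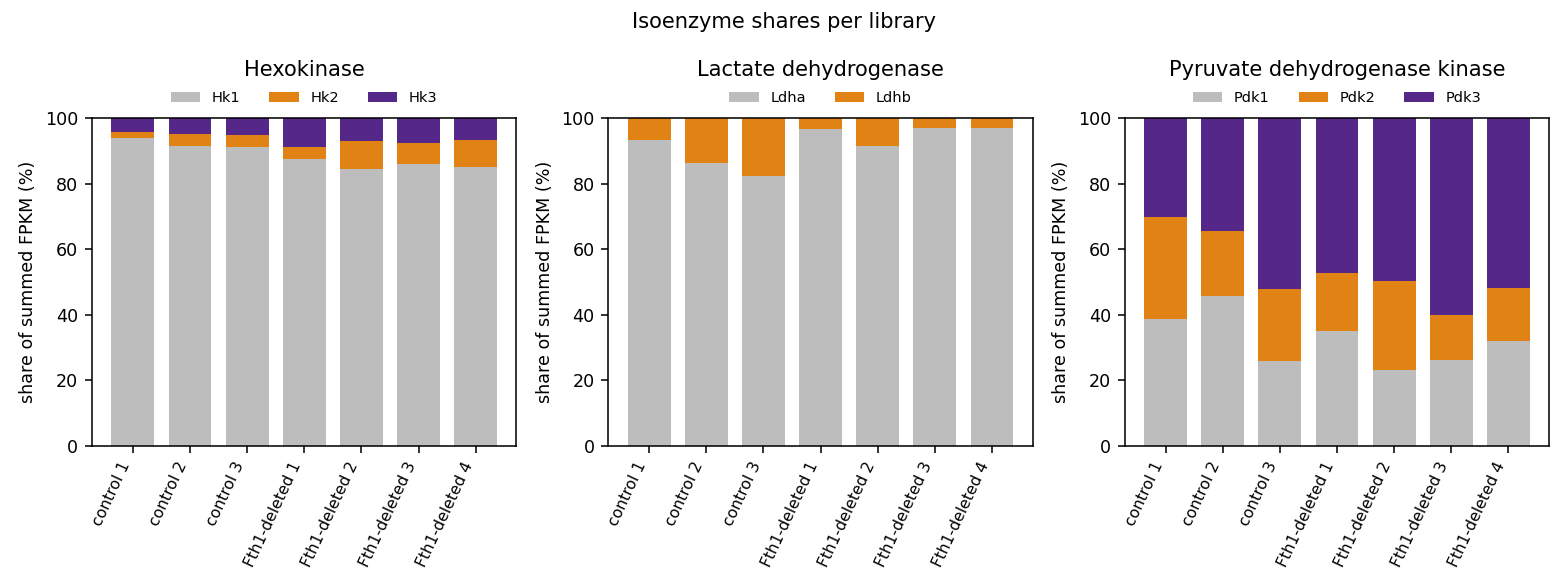
Share of the summed FPKM (%) of each hexokinase, lactate dehydrogenase and pyruvate dehydrogenase kinase gene in the 7 libraries. Hk1 holds 91.3% or more of hexokinase FPKM in each control and 87.4% or less in each Fth1-deleted library.

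In the middle of glycolysis, from glucose 6-phosphate to the triose phosphates, 3 of 7 genes had a positive difference and their median was -0.04. The most abundant was Gpi1, glucose-6-phosphate isomerase, at 406, 337 and 406 FPKM in the controls and 468, 468, 391 and 493 FPKM in the deleted libraries (log2 difference 0.25 ± 0.16 SE, adjusted p = 0.644, and 0.16 without control 2). The phosphofructokinase genes, which encode the committed step, had summed levels of 260 to 329 against 273 to 316 FPKM. Pfkl, the liver-type form, was the largest of them in every library, at 59.1% to 71.7% of that sum in the controls and 60.5% to 73.1% in the deleted ones. Its log2 difference was -0.05, with 0.08 for Pfkm and -0.05 for Pfkp, the muscle and platelet types. Triose phosphate isomerase, Tpi1, had a log2 difference of -0.04.

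Aldoa, the aldolase that splits fructose 1,6-bisphosphate (chromosome 7, 126795234 to 126800751), was the 1 gene among these 7 whose groups did not overlap. It was at 292, 329 and 298 FPKM in the controls and 473, 380, 415 and 533 FPKM in the Fth1-deleted libraries. The lowest deleted library exceeded the highest control, and the mean was 1.47-fold higher (log2 difference 0.54 ± 0.17 SE, unadjusted p = 0.00671, adjusted p = 0.339). Aldoc, the brain-type form, was low and variable, at 4.86 to 20.1 against 4.13 to 18.6 FPKM.

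The steps from triose phosphate to pyruvate had positive differences for 6 of 6 genes, with a median of 0.32, although for Eno3 the group means ran the other way. Pgk1, phosphoglycerate kinase, which makes the first ATP of the pathway (chromosome X, 106187100 to 106203699), was at 160, 185 and 211 FPKM in the controls and 259, 218, 288 and 299 FPKM in the deleted libraries. The groups were separated, narrowly for Fth1-deleted 2, and the mean was 1.43-fold higher (log2 difference 0.52 ± 0.18 SE, adjusted p = 0.398). Gapdh, the dehydrogenase before it (chromosome 6, 125161715 to 125166467), was at 25.2, 54.0 and 83.5 FPKM in the controls and 85.8, 88.2, 63.1 and 96.7 FPKM in the deleted ones. Here the groups overlapped and control 1 was far below the rest (log2 difference 0.75 ± 0.34 SE, adjusted p = 0.505), and the difference was 0.29 without control 1 and 1.14 without control 3.

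Gapdh levels are uncertain, because 49 other genes hold near-identical copies that together cover 88.0% of its transcript, and those copies summed to 36.3 to 68.2 FPKM per library. The other member genes with copies of over 50% of the transcript, namely Ldhb, Pdhb, Pkm, Pgk1, Me1 and Eno1, had copies at no more than 13.4 FPKM in sum. A low level of the copies does not show that reads of these members were counted in full, which was not tested. Pkm, pyruvate kinase, was at 623, 814 and 717 FPKM in the controls and 811, 813, 755 and 858 FPKM in the deleted libraries (log2 difference 0.18 ± 0.15 SE, adjusted p = 0.723, and 0.08 without control 1 or 0.27 without control 2). Eno1 and Pgam1, enolase and phosphoglycerate mutase, had log2 differences of 0.14 and 0.32. Eno3, the muscle enolase, was at 25.8, 2.35 and 28.1 FPKM in the controls and 17.0, 11.6, 17.0 and 20.1 FPKM in the deleted libraries. Its log2 difference was 0.31 ± 0.65 (SE, adjusted p = 0.896), while its mean FPKM was 18.8 in the controls and 16.4 in the deleted libraries.

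The lactate dehydrogenase genes had differences of opposite sign. Ldha, the form that favours lactate production (chromosome 7, 46841475 to 46855627), was the most abundant of all 52 members, at 821, 623 and 857 FPKM in the controls and 1070, 741, 962 and 1152 FPKM in the Fth1-deleted libraries. The groups overlapped through Fth1-deleted 2 (log2 difference 0.35 ± 0.19 SE, adjusted p = 0.591, and 0.21 without control 2). Ldhb, the form of oxidative tissues (chromosome 6, 142490249 to 142507957), was at 57.3, 99.1 and 182 FPKM in the controls and 37.2, 68.6, 28.9 and 33.3 FPKM in the deleted libraries.

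For Ldhb, 3 deleted libraries were below every control and Fth1-deleted 2 lay between control 1 and control 2. The deleted mean was 2.68-fold lower (log2 difference -1.33 ± 0.38 SE, unadjusted p = 0.00466, adjusted p = 0.305). Its share of lactate dehydrogenase FPKM was 6.52%, 13.7% and 17.5% in the controls and 3.36%, 8.47%, 2.92% and 2.81% in the deleted libraries. The controls thus differed among themselves by more than the 3 low deleted libraries did.

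**Figure D3:**
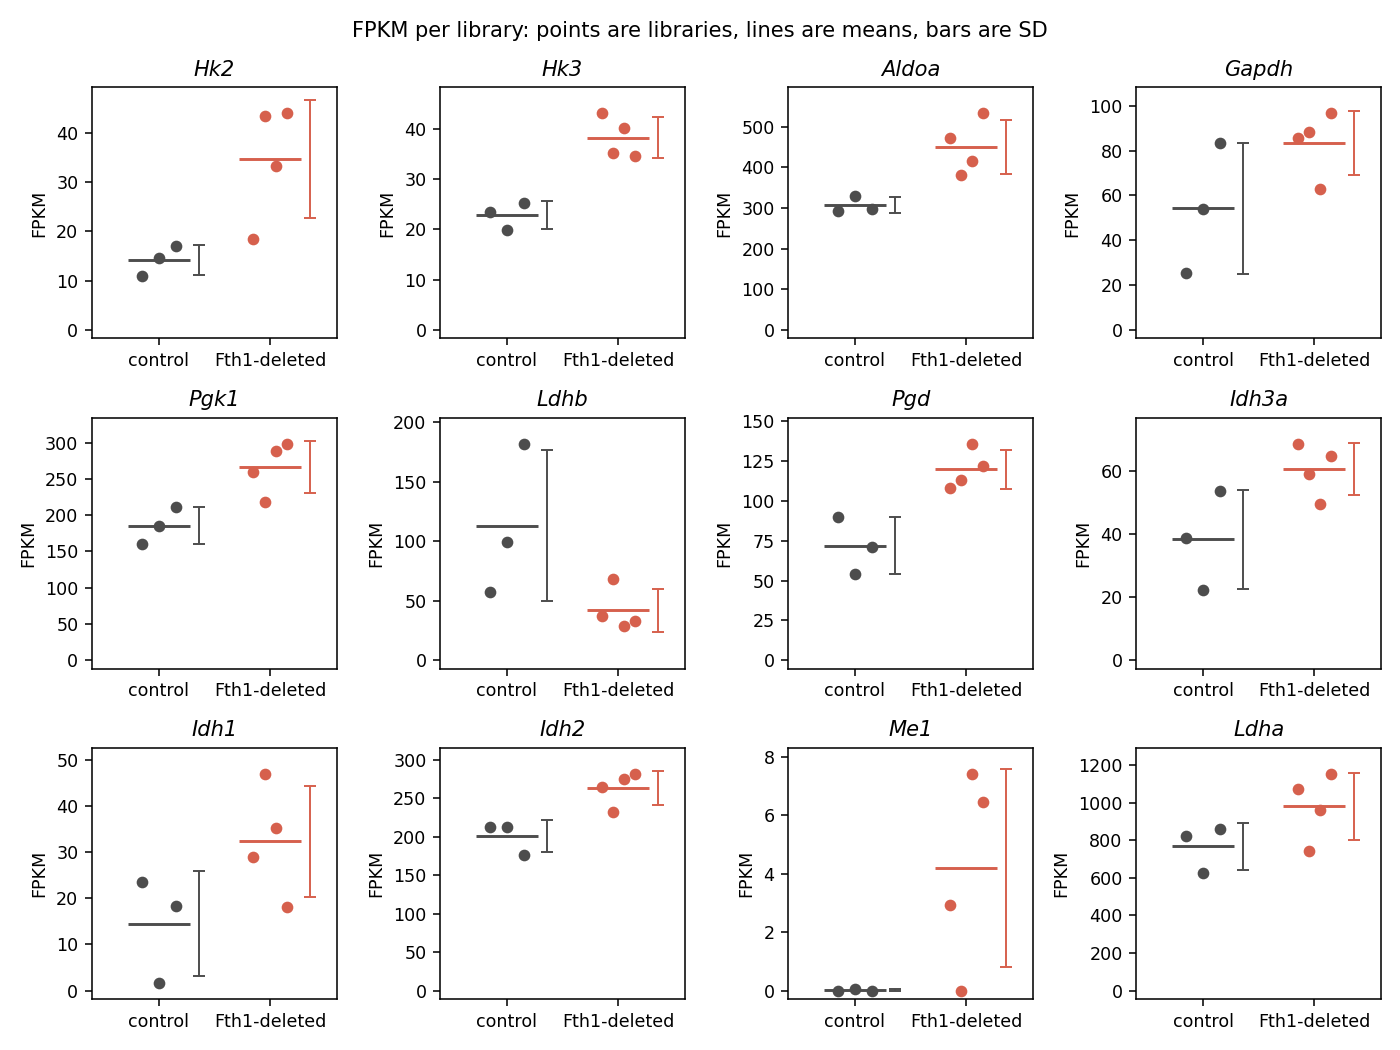
FPKM of 12 members in each library, with points for libraries, lines for group means and bars for SD (3 control, 4 Fth1-deleted; each panel has its own FPKM axis that starts near 0). Hk2, Hk3, Aldoa, Pgk1, Pgd and Idh2 have no overlap between groups, whereas Ldhb is lower in 3 of the 4 deleted libraries.

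In the pentose phosphate pathway 6 of 7 genes had a positive difference, with a median of 0.32. Pgd, 6-phosphogluconate dehydrogenase, which forms NADPH and ribulose 5-phosphate (chromosome 4, 149149991 to 149166771), had the smallest adjusted p of all members. It was at 90.0, 54.4 and 71.1 FPKM in the controls and 108, 113, 136 and 122 FPKM in the Fth1-deleted libraries. The groups were separated and the mean was 1.67-fold higher (log2 difference 0.75 ± 0.21 SE, unadjusted p = 0.00424, adjusted p = 0.295).

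G6pdx, glucose-6-phosphate dehydrogenase, the entry enzyme of the oxidative branch, was even in the deleted libraries (54.5 to 65.8 FPKM) but ranged from 28.3 to 79.2 FPKM in the controls. Pgls, the lactonase between them, was at 93.1, 83.9 and 125 FPKM in the controls and 150, 72.0, 122 and 153 FPKM in the deleted libraries (log2 difference 0.26 ± 0.27 SE, adjusted p = 0.773, and from 0.14 without control 2 or Fth1-deleted 4 to 0.50 without Fth1-deleted 2). The non-oxidative branch, which interconverts sugar phosphates, was led by Tkt, transketolase, at 332, 258 and 382 against 412, 285, 415 and 502 FPKM (log2 difference 0.30 ± 0.21 SE, adjusted p = 0.672, and 0.15 without control 2, 0.46 without Fth1-deleted 2 or 0.19 without Fth1-deleted 4). Taldo1, transaldolase, had a log2 difference of 0.52 ± 0.24 (SE, unadjusted p = 0.0509). Fth1-deleted 2 was the lowest deleted library for Pgls, Tkt and Taldo1, and Rpia, ribose 5-phosphate isomerase, was the 1 gene of the pathway with a negative value, -0.10. Rpe, the epimerase of the branch, was low throughout, at 7.90 to 18.1 FPKM.

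Among the genes of pyruvate oxidation 3 of 7 had a positive difference and the median was -0.04. Pdhb, the beta subunit of pyruvate dehydrogenase, was at 88.9, 108 and 94.7 FPKM in the controls and 112, 103, 77.9 and 86.5 FPKM in the deleted libraries (log2 difference -0.04 ± 0.20 SE, adjusted p = 0.956). The other subunits had log2 differences of -0.13 for Pdha1, 0.12 for Dlat and 0.27 for Dld. The kinases that inactivate the complex had differences of both signs. Pdk1 had a log2 difference of -0.52 ± 0.28 (SE, adjusted p = 0.579) and Pdk2 of -0.60 ± 0.29 (SE, adjusted p = 0.524). Pdk3 was at 42.7, 62.8 and 94.8 FPKM in the controls and 58.5, 68.2, 88.8 and 89.4 FPKM in the deleted libraries (log2 difference 0.24 ± 0.28 SE, adjusted p = 0.800, and -0.04 without control 1 or 0.53 without control 3). Pdk3 held 30.1%, 34.5% and 52.1% of kinase FPKM in the controls and 47.3% to 60.0% in the deleted libraries, overlapping through control 3.

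In the TCA cycle with complex II, 14 of 16 genes had positive differences, with a median of 0.23, and their groups overlapped in 16 of 16. Idh3a, the catalytic subunit of the NAD-linked isocitrate dehydrogenase (chromosome 9, 54586334 to 54604661), was at 38.9, 22.4 and 53.7 FPKM in the controls and 68.6, 59.0, 49.6 and 64.9 FPKM in the deleted libraries. Fth1-deleted 3 fell below control 3 (log2 difference 0.72 ± 0.30 SE, adjusted p = 0.462), and without control 2 the difference was 0.39. Its partner Idh3g was at 154, 145 and 223 against 198, 223, 204 and 217 FPKM (log2 difference 0.30 ± 0.19 SE, adjusted p = 0.640, and 0.18 without control 2 or 0.49 without control 3), and Idh3b, the other regulatory partner, had a negative log2 difference, -0.17. Citrate synthase, Cs, which starts the cycle, had 0.22.

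Later in the cycle, Dlst, a subunit of oxoglutarate dehydrogenase, was at 184, 106 and 121 FPKM in the controls and 128, 117, 136 and 173 FPKM in the deleted libraries (log2 difference 0.04 ± 0.23 SE, adjusted p = 0.965). Ogdh, the subunit that gives that enzyme its name, had a log2 difference of 0.22. The subunits of succinyl-CoA ligase had 0.30 for Sucla2, 0.18 for Suclg1 and -0.25 for Suclg2. Complex II, succinate dehydrogenase, carries iron-sulfur clusters in Sdhb and heme at Sdhc and Sdhd. Its 4 genes had log2 differences from 0.18 to 0.36. Sdha, the flavoprotein subunit, was the most abundant at 373, 415 and 481 FPKM in the controls and 509, 475, 431 and 496 FPKM in the deleted libraries (log2 difference 0.18 ± 0.16 SE, adjusted p = 0.728, and 0.09 without control 1 or 0.27 without control 3).

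Sdhd, the membrane anchor subunit, was at 157 FPKM in Fth1-deleted 4 and between 71.2 and 90.8 FPKM in the other 6 libraries. Fh1, fumarase, was at 40.1 FPKM in control 2 and between 95.5 and 121 FPKM elsewhere (log2 difference 0.56 ± 0.29 SE, adjusted p = 0.574). Mdh2, mitochondrial malate dehydrogenase, was at 310, 159 and 273 FPKM in the controls and 312, 261, 241 and 335 FPKM in the deleted libraries (log2 difference 0.26 ± 0.23 SE, adjusted p = 0.734, and -0.03 without control 2 or 0.45 without control 1). Control 2 was the lowest library for both, and for Mdh2 the other controls lay within the range of the deleted libraries. Mdh1, the cytosolic form, had a log2 difference of 0.06.

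**Figure D4:**
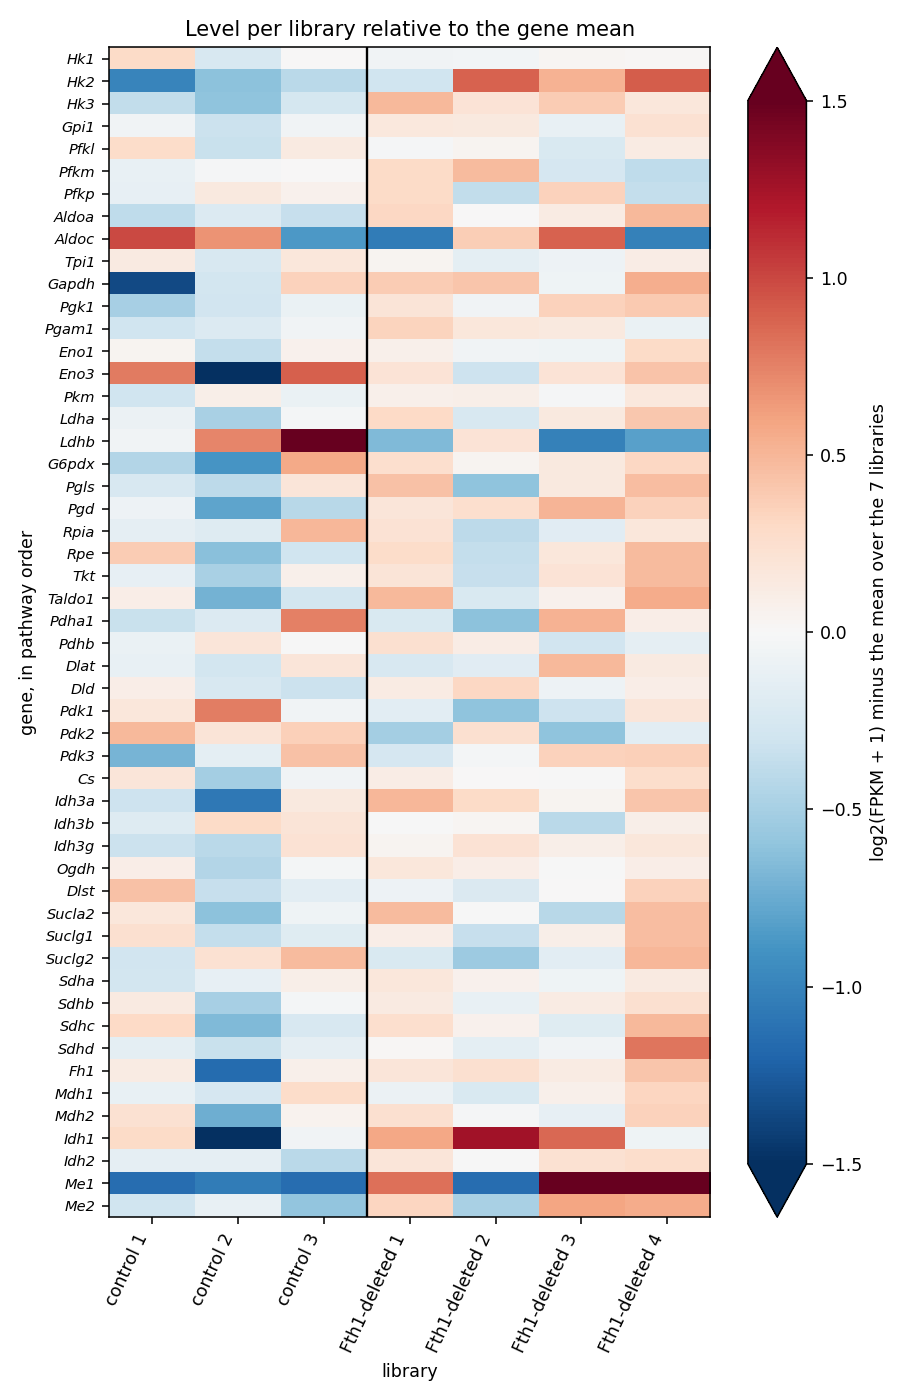
Level of each of the 52 members per library as log2(FPKM + 1) minus the gene's mean over the 7 libraries, with red above and blue below that mean and the vertical line between control and Fth1-deleted. Control 2 is the bluest column, being the lowest of all libraries for 28 members.

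The NADP-linked isocitrate dehydrogenases and the malic enzymes, which make NADPH or pyruvate from TCA cycle intermediates, had 4 of 4 positive differences and a median of 1.06. Idh2, the mitochondrial form (chromosome 7, 80094846 to 80115392), was at 213, 213 and 177 FPKM in the controls and 265, 233, 275 and 282 FPKM in the Fth1-deleted libraries. The groups were separated and the spread within each was small, with a mean 1.31-fold higher (log2 difference 0.39 ± 0.16 SE, adjusted p = 0.472). Idh1, the cytosolic form (chromosome 1, 65158616 to 65186500), was at 23.5, 1.71 and 18.3 FPKM in the controls and 28.9, 46.9, 35.2 and 18.2 FPKM in the deleted ones.

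Control 2 held only 28 recovered reads of Idh1, against 240 to 696 in the other 6 libraries. The log2 difference of Idh1 was 1.54 ± 0.65 (SE, adjusted p = 0.477) with all libraries and 0.54 without control 2. With the share of ribosomal RNA reads as a covariate it was 4.49 (adjusted p = 0.0463), which made Idh1 the 1 member to pass the threshold in any alternative. Control 2 is the 1 control whose ribosomal RNA share lay near those of the deleted libraries.

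Me1, the cytosolic malic enzyme (chromosome 9, 86581371 to 86695953), was nearly absent from the controls, with 0, 2 and 0 recovered reads. The Fth1-deleted libraries had 89, 0, 187 and 188 reads, equal to 2.92, 0, 7.40 and 6.44 FPKM. It was thus present in 3 of the 4 deleted libraries and at 0 in Fth1-deleted 2 (log2 difference 1.95 ± 0.85 SE, adjusted p = 0.483, a value that depends on the pseudocount). Fth1-deleted 2 was also the deleted library with the lowest summed macrophage and neutrophil markers, and the part of those cells in the Me1 reads was not tested. Me2, a mitochondrial malic enzyme on chromosome 18, had a log2 difference of 0.58 ± 0.31 (SE, adjusted p = 0.583).

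The summed level of these 4 genes was 266, 249 and 219 FPKM in the controls and 343, 305, 373 and 361 FPKM in the Fth1-deleted libraries, with no overlap. Idh2 made up most of this sum, at 177 to 213 against 233 to 282 FPKM. The groups of Idh1, Me1 and Me2 each overlapped. The sums for the other pathways overlapped: glycolysis had 3985 to 4712 against 4624 to 5487 FPKM, the pentose phosphate pathway 624 to 939 against 780 to 1277 FPKM, and the TCA cycle with complex II 1683 to 2228 against 2052 to 2611 FPKM. Pyruvate dehydrogenase and its kinases had 427 to 543 against 433 to 498 FPKM. The 5 members that form NADPH, namely G6pdx, Pgd, Idh1, Idh2 and Me1, were all positive with a median of 0.75, of which Pgd and Idh2 had groups without overlap.

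**Figure D5:**
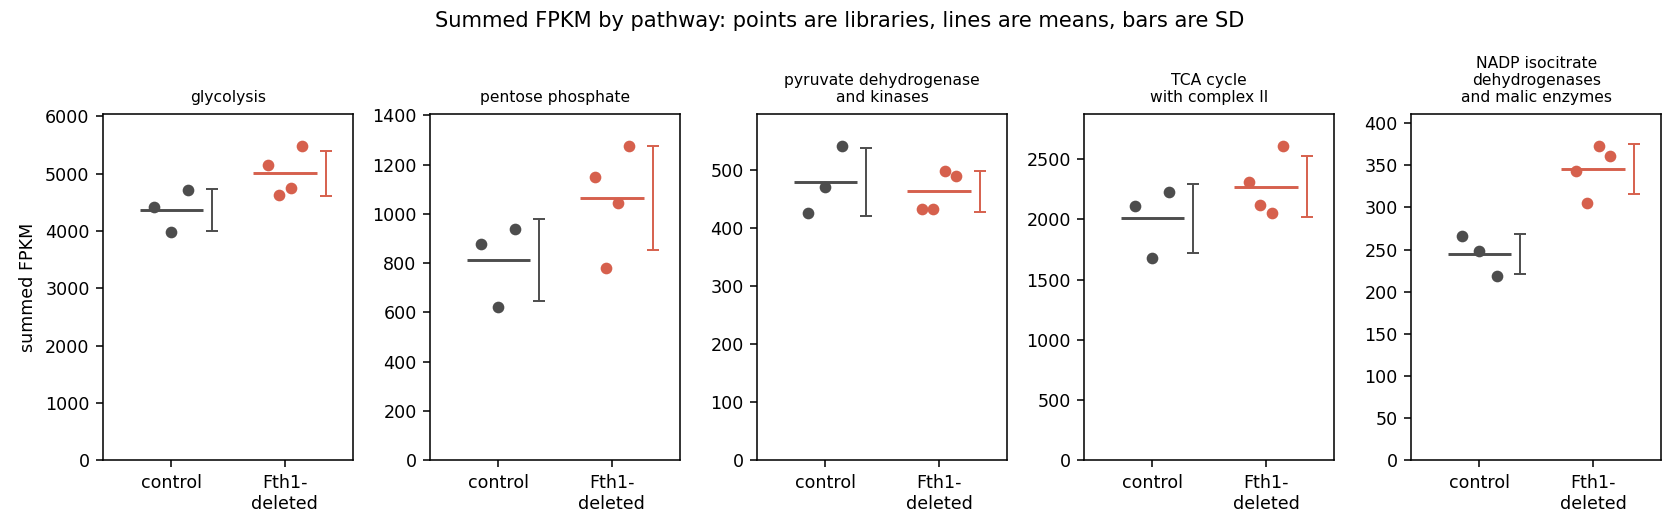
Summed FPKM of the members of each pathway per library, with points for libraries, lines for means and bars for SD (3 control, 4 Fth1-deleted). The NADP isocitrate dehydrogenase and malic enzyme sums of 305 to 373 FPKM in the deleted libraries lie above the control sums of 219 to 266 FPKM. Most of these sums is Idh2.

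Other genes of the same pathways, from a list of 70 that are not members, gave a lower share of positive differences. Of these, 53 were tested, 20 (37.7%) were positive and their median was -0.08. With limma 0 passed the threshold. Before adjustment 1 was higher and 1 lower at p under 0.05, against 4.9% and 4.93% of all tested genes. Tigar, a phosphatase that lowers fructose 2,6-bisphosphate, was at 0, 0.737 and 0 FPKM in the controls and 2.21 to 5.87 FPKM in the deleted libraries (log2 difference 1.81 ± 0.68 SE, adjusted p = 0.434). Ldhd, the D-lactate dehydrogenase, was at 8.60 to 14.4 FPKM in the controls and 1.09 to 7.26 FPKM in the deleted libraries (log2 difference -1.59 ± 0.60 SE, adjusted p = 0.435). Both had groups without overlap, in opposite directions. Of the 53, 1 was higher and 2 were lower without overlap, against 4.1% and 5.55% of all tested genes.

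In the TCA cycle outside the members, 0 of 7 tested genes were positive, with a median of -0.26. They include Aco1, the cytosolic aconitase that doubles as an iron sensor, with a log2 difference of -0.40 ± 0.28 (SE, adjusted p = 0.670), and D2hgdh, which oxidises D-2-hydroxyglutarate, with -0.54 ± 0.26 (SE, adjusted p = 0.540). In the malate-aspartate and citrate shuttles 6 of 12 were positive, with Slc25a13, an aspartate-glutamate carrier, at 26.4 to 41.6 FPKM in the controls and 15.4 to 23.7 FPKM in the deleted libraries. Of 11 tested HIF-1 targets outside these pathways 3 were positive, with a median of -0.22. Ndrg1 and Egln1 among them had log2 differences of -0.70 ± 0.31 (SE, adjusted p = 0.489) and -0.75 ± 0.47 (SE, adjusted p = 0.640). The difference between the members and these lists was not tested.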

How the data were processed

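PolyA RNA of 7 libraries was measured by paired-end RNA-seq. Per the series text and the submitters' processing notes, HISAT2 2.0.4 aligned the reads (GRCm38), HTSeq 0.9.1 counted them, and the authors deposited FPKM per gene; the annotation release and strand setting are not given in the sources used here. FPKM were matched to GENCODE M21 (55394 of 55855 rows). Multiplying FPKM by mean transcript length and dividing by a unit fitted per library gave read numbers. These were whole, within 0.05, for 98.8% to 99.4% of the values with few reads, the only values checked. Log2(FPKM + 1) was taken for genes averaging 1 FPKM or more and fitted with limma 3.58.1 (trend, R 4.3.3), 2-sided, with Benjamini-Hochberg adjustment at 0.05. Copies were regions of at least 100 bases at 97% identity or more (BLAST 2.17.0). The fit was tested on simulated data. Members and lists were chosen with earlier results of these data known. Full values are given for members with unadjusted p under 0.05, members with no overlap between groups and a mean of at least 5 FPKM, and the most abundant member of each step; for other lists, up to 2 genes with the smallest p. Alternatives changed pseudocount, filter, scaling, covariates, tool and libraries. Some marker genes are not reported here.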

Additional observations from a re-analysis of the deposited data

Results flagged for a closer look

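Among 62 values examined (the members and the sums and shares over them) in the 4 Fth1-deleted libraries, 2 had 1 library far from the others by Dixon's gap test at the 95% level. Sdhd was at 157.2 FPKM in Fth1-deleted 4, where the other deleted libraries were at 80.8 to 90.8 FPKM. The share of lactate dehydrogenase FPKM from Ldhb was 8.47% in Fth1-deleted 2, where the others were at 2.81% to 3.36%. Chance flags about 1 in 20 such groups.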

How the results depend on the processing

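Over 21 alternatives, 0 members passed the threshold in 20, and with the ribosomal RNA share as covariate 1 did (Idh1), while the median difference of the members became 0.49. Leaving out 1 library at a time, 0 members passed and the median ranged from 0.11 (without control 2) to 0.31 (without control 1). Of 23 named members, 17 kept their sign in each alternative they could be run in; 4 of these (Hk2, Hk3, Idh1 and Me1) were dropped by 1 or 2 of the stricter filters. Dlst was -0.0136 with quantile normalization, -0.0371 as TPM and -0.0701 with the replicate block, and -0.12 to 0.27 with 1 library left out. Pdhb was 0.00532 with array weights and -0.128 to 0.0458 with 1 library left out. Hk1 was 0.33 with the ribosomal RNA covariate, 0.0551 with a term for Y-linked reads and -0.16 to 0.11 with 1 library left out. Pkm was -0.10 with the ribosomal RNA covariate. Pdk3 ranged from -0.0404 to 0.53 and Mdh2 from -0.0300 to 0.45 with 1 library left out. Genes called over the whole table numbered 4 higher and 4 lower; counts were 10 and 7 without trend, 23 and 9 with the ribosomal RNA covariate, 7 and 10 with the Y-linked term, 0 and 5 on recovered reads, and 0 and 0 with no filter, without control 3 or with the replicate block. Without the other libraries they ran from 1 and 0 (Fth1-deleted 3) to 13 and 6 (control 1). The labels do not say whether replicate numbers pair the libraries. Correlations of same-numbered deviations were 0.01, 0.06 and -0.04, and control 2 was the only control to correlate best with its own number. With few libraries, centred within each group, these correlations cannot decide whether the libraries are paired. Under the replicate block the members' median was 0.18. With 3 controls, of which 1 stood apart in ribosomal RNA share, each result rests on few libraries. Low genes such as Me1 depend on the pseudocount (log2 difference 4.05 at 0.1 and 0.79 at 5).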
